A study of Homo sapiens with 18 samples.

Results

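Regulators of G protein signalling (RGS proteins) were followed in RNA sequencing of 2 human leukemia lines, U937 and THP-1. The genes described are RGS1, RGS2, RGS3, RGS10, RGS12, RGS14, RGS16, RGS18 and RGS19, 9 of the 18670 genes in the deposited count table. They were chosen by gene symbol, and the choice used measured values: RGS18 stood out for its low level after drug treatment, so the drug effects of the 9 genes with each vector are given as a description, without a test. The difference of these effects between vectors is tested for the members other than RGS18, and that test draws on the same drug values. The 18 libraries form 6 groups of 3: U937 cells with the lentiviral knockdown vector shS100A9, U937 cells with empty vector, THP-1 cells with the lentiviral overexpression vector OES100A9 plus Adavivint, THP-1 cells with empty vector plus Adavivint, THP-1 cells with OES100A9, and THP-1 cells with empty vector. S100A9 is a calcium-binding protein of myeloid cells, and Adavivint is a small-molecule kinase inhibitor known for lowering Wnt signalling. The drug was given at 1 µM for 36 hours, and cells of every group were lentivirus-transduced and selected with puromycin at 2 µg/mL, started 48 hours after transduction. Each line stands for 1 leukemia, and the labels do not call the replicates separate cultures; p-values here reflect how much these samples vary, which can be technical variation.

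G protein-coupled receptors switch on heterotrimeric G proteins by loading the alpha subunit with GTP. RGS proteins bind the active alpha subunit and speed up its GTP hydrolysis, which ends the signal. Blood cells use them to limit the response to chemokines, lipids and nucleotides. RGS1, RGS2, RGS3, RGS16 and RGS18 belong to one subfamily of the RGS domain tree, RGS10, RGS12 and RGS14 to another, and RGS19, first described as G alpha interacting protein, to the third.

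Library totals ran from 38.4 to 84.4 M counts (M, 1e6). S100A9 checked the labels: it had 0.217, 0.407 and 0.06 CPM (counts scaled to 1 M library counts) with shS100A9 against 6.87, 4.54 and 7.13 CPM with empty vector in U937 cells, and 29.7, 28.9 and 26.4 CPM with OES100A9 against 9.32, 3.92 and 6.07 CPM with empty vector in untreated THP-1 cells. Of the 12 monocyte markers in the marker list, all had counts in every group, and 9 to 11 reached 1 CPM. Among the U937 libraries, empty vector replicate 2 and shS100A9 replicate 3 stand apart from the others of their groups. The chi-square per degree of freedom between replicates was 135 and 142 for the pairs with empty vector replicate 2 and 8.05 for the other pair, and 167 and 225 for the pairs with shS100A9 replicate 3 and 13.1 for the other pair. U937 results of the RGS genes described are therefore given with and without these libraries where the calls differ. For other genes, U937 results are not given without these libraries.

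The promoters of 4 members are shown because these genes had the most divergent values: RGS18 and RGS16, the 2 members lowest under Adavivint relative to untreated cells, RGS2, which was higher under the drug, and RGS1, which was lower with shS100A9. RGS18, RGS1 and RGS2 lie in 1 cluster on chromosome 1. Each window runs from 250 bases before to 50 bases after the RefSeq transcription start (GRCh38.p14), read 5′ to 3′ on the strand of the gene, with CG dinucleotides in capitals. The windows are chr1:192158212-192158511 on the + strand for RGS18, chr1:182604340-182604639 on the - strand for RGS16, chr1:192808789-192809088 on the + strand for RGS2 and chr1:192575523-192575822 on the + strand for RGS1.
RGS18: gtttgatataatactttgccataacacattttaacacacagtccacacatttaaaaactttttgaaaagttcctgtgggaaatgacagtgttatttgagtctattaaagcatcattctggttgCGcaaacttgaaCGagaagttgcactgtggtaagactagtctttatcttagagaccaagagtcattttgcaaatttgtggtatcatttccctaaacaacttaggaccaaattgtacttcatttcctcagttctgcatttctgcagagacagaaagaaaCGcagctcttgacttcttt
RGS16: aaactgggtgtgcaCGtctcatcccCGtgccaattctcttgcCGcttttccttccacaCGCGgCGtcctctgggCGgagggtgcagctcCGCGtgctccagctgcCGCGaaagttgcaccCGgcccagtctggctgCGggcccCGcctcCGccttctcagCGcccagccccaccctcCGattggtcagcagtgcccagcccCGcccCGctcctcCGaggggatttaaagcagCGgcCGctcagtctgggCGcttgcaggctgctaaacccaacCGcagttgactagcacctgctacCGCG
RGS2: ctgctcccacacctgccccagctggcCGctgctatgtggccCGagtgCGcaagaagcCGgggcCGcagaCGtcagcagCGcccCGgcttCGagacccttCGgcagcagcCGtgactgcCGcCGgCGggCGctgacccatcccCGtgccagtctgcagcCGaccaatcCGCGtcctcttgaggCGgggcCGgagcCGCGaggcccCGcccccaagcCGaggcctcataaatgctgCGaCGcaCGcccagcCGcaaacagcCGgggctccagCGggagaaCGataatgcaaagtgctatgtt
RGS1: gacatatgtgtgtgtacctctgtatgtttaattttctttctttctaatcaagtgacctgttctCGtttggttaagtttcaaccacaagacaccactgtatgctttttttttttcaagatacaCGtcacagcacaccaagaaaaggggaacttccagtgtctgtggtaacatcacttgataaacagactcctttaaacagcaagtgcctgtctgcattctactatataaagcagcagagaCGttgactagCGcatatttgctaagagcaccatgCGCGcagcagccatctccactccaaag

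The 4 windows differ in base composition. The RGS18 window holds 3 CG dinucleotides at 36.0% GC, lower than all but 5.34% of the 35116 RefSeq promoter windows, whose median is 58.7%. The RGS1 window holds 6 at 41.7% GC. RGS16, with 26 CG dinucleotides at 67.0% GC, and RGS2, with 32 at 69.7% GC, have CG-rich windows. The 2 members lowest under the drug thus have 1 CG-poor and 1 CG-rich window. The search for short motifs covered 4 of them on both strands: the TATA box TATAAA, the E-box CACGTG, the cyclic AMP response element core TGACGT and the ETS core AGGAAG. The E-box and the cyclic AMP response element core share the letters ACGT, so searches for these are not independent. The RGS1 window holds TATAAA 27 bases before the start, a motif found in 11.5% of all windows, and TGACGT on the reverse strand, its first base at position -129. The RGS2 window holds TGACGT on the reverse strand, its first base at position -182, and this motif is found in 8.0% of all windows. The E-box is found in 7.26% and the ETS core in 33.6% of all windows, and the RGS18 and RGS16 windows hold none of the 4. RefSeq lists 19 windows for the 9 genes, with several starts for RGS3, RGS10, RGS12 and RGS19, and the counts do not tell which start was used.

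Untreated cells of both lines held mainly RGS18, RGS10 and RGS19 transcripts when levels were divided by exon length. With empty vector in U937 cells, RGS18 had 27.9 ± 7.33 CPM per kb, RGS19 had 22.7 ± 2.90 and RGS10 had 20.1 ± 2.40 CPM per kb (SD, n = 3). With empty vector in THP-1 cells, RGS18 had 28.1 ± 1.32 CPM per kb, RGS10 had 20.7 ± 1.92 and RGS19 had 15.8 ± 1.62 CPM per kb (SD, n = 3). RGS12, RGS14 and RGS16 followed at 3.34 to 4.43 CPM per kb in these 2 groups, RGS2 at 0.987 and 1.03 CPM per kb, and RGS1 and RGS3 at 0.133 to 0.319 CPM per kb. RGS18 is known from platelets and their precursors, where it restrains signalling of the Gi and Gq classes. Platelet and megakaryocyte markers were low in these libraries: 11 of 12 are in the table, PPBP was at 0 in the untreated THP-1 groups, GP9 was at 0 in all untreated groups, and NRGN, the highest of the list, gave 12.9 to 15.5 CPM there. RGS18 made up 32.9% ± 6.05 of the length-corrected sum of the 9 genes in empty vector U937 cells and 36.3% ± 1.39 in empty vector THP-1 cells (SD, n = 3).

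**Figure D1:**
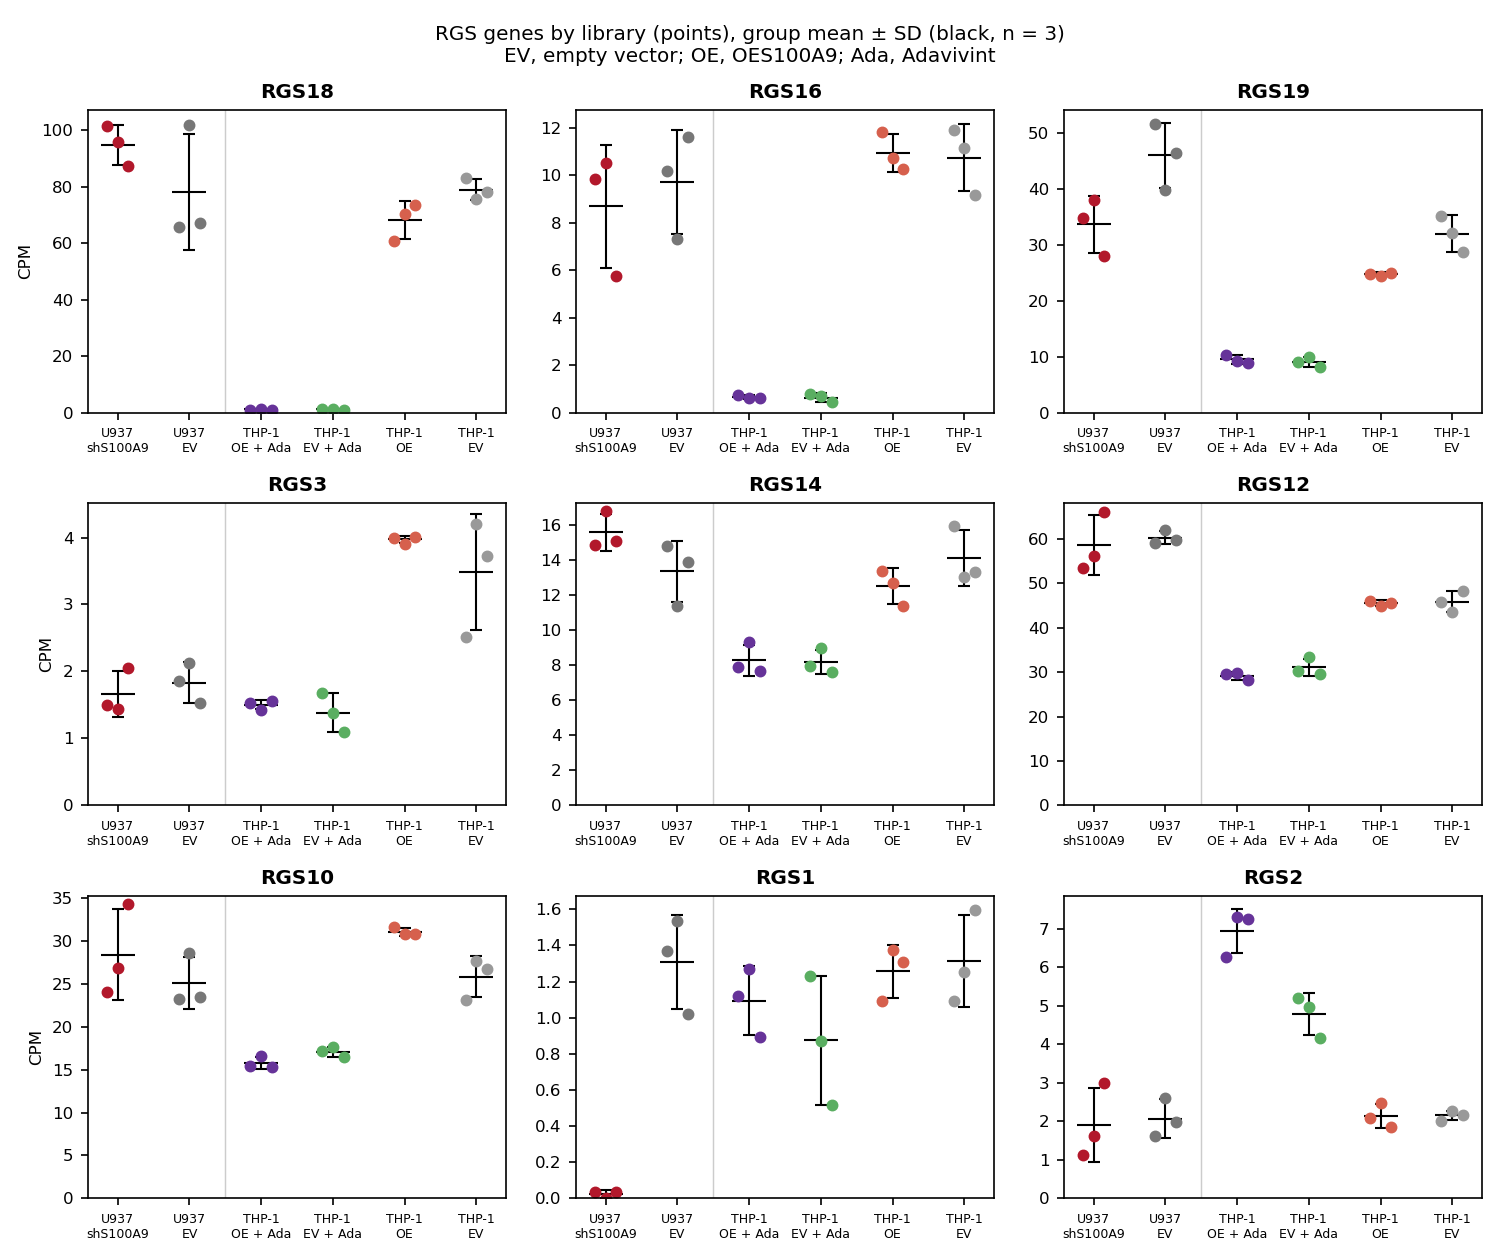
CPM of each of the 9 RGS genes (vertical axis, linear from 0) in every library of the 6 groups (horizontal axis). Points are libraries and black bars the group mean ± SD (n = 3). The 6 Adavivint libraries lie below every other library for RGS18, RGS16, RGS19, RGS14, RGS12 and RGS10. For RGS2 they lie above the untreated libraries of both lines. The share of all genes separating in these ways was not computed, so nothing is read from the number of genes named.

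RGS18 had the largest difference of the 9 genes under Adavivint. It was at 0.963, 1.37 and 1.05 CPM in OES100A9 THP-1 cells with the drug, 1.30, 1.22 and 0.775 CPM in empty vector cells with the drug, 60.7, 70.5 and 73.6 CPM in untreated OES100A9 cells and 83.0, 75.7 and 78.3 CPM in untreated empty vector cells. All 6 drug-treated libraries lie far below the 6 untreated ones. The log2 fold change under the drug was -5.88 (SE 0.15), a 58.7-fold lower level, with OES100A9, and -6.12 (SE 0.15), a 69.6-fold lower level, with empty vector. These values rank RGS18 the 35th and the 28th lowest of 15403 genes. In bulk RNA, fewer cells with a transcript and less of it per cell cannot be told apart. The summed platelet and megakaryocyte markers lay between 12.3 and 15.5 CPM in the treated libraries against 17.9 to 22.7 CPM in the untreated ones, a difference carried by NRGN, which averaged 4.86 CPM with OES100A9 and drug against 12.9 CPM with OES100A9 alone and 6.21 CPM with empty vector and drug against 15.5 CPM with empty vector alone. Without NRGN the sum was higher under the drug, at 7.98 to 9.31 CPM against 4.90 to 6.34 CPM, and of 7 markers tested 2 fell and 4 rose with OES100A9 and 1 fell and 3 rose with empty vector by edgeR. The summed lymphoid markers lay at 48.6 to 58.3 CPM in the treated libraries against 75.5 to 106 CPM in the untreated ones. NKG7, the highest of that list, averaged 34.0 CPM with OES100A9 and drug against 59.8 CPM with OES100A9 alone. With empty vector NKG7 averaged 31.5 CPM with the drug against 75.9 CPM without. The summed monocyte markers lay at 1598 to 1777 CPM against 1258 to 1428 CPM. LYZ was the highest of that list in both treated groups and PTPRC in both untreated groups. Of 12 monocyte markers tested, 5 fell and 3 rose with OES100A9 and 5 fell and 5 rose with empty vector by edgeR. The part of these marker differences in the RGS18 values was not tested.

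RGS16, which limits Gi and Gq signalling of chemokine receptors in lymphocytes, was the other member more than 10-fold lower. It was at 0.755, 0.610 and 0.624 CPM in OES100A9 cells with the drug and 0.791, 0.676 and 0.431 CPM in empty vector cells with the drug, against 11.8, 10.7 and 10.3 CPM in untreated OES100A9 cells and 11.9, 11.1 and 9.18 CPM in untreated empty vector cells. The 2 sets of libraries do not overlap. The log2 fold change was -4.00 (SE 0.19) with OES100A9 and -4.04 (SE 0.19) with empty vector. With empty vector this was a 16.5-fold lower level and the 134th lowest of all genes tested.

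RGS19, a regulator of Gi-class alpha subunits that also binds PDZ proteins, averaged 9.50 ± 0.78 CPM in OES100A9 cells with the drug and 9.02 ± 0.86 CPM in empty vector cells with the drug, against 24.7 ± 0.33 CPM in untreated OES100A9 cells and 32.0 ± 3.28 CPM in untreated empty vector cells (SD, n = 3). Its log2 fold change was -1.34 (SE 0.10) with OES100A9 and -1.78 (SE 0.10) with empty vector. RGS3, a regulator of Gi and Gq subunits with many isoforms, was at 1.54, 1.42 and 1.56 CPM in OES100A9 cells with the drug, against 4.00, 3.90 and 4.01 CPM in untreated OES100A9 cells, a log2 fold change of -1.35 (SE 0.20). With empty vector the RGS3 log2 fold change was -1.28 (SE 0.20).

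A further 4 members were lower by less. RGS14, a scaffold for Gi subunits and Ras-family GTPases, had log2 fold changes of -0.55 (SE 0.12) with OES100A9 and -0.74 (SE 0.12) with empty vector. RGS12, a large scaffold with a PDZ domain, had -0.60 (SE 0.06) with OES100A9 and -0.51 (SE 0.06) with empty vector. RGS10, a small protein known in mouse for restraining inflammatory signalling of microglia and macrophages, had -0.93 (SE 0.07) with OES100A9 and -0.54 (SE 0.07) with empty vector. For these 3 genes no treated library reached an untreated one. RGS1, a regulator of chemokine receptor signalling in lymphocytes, had -0.16 (SE 0.28) with OES100A9 and -0.54 (SE 0.28) with empty vector, and its treated and untreated libraries overlap.

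RGS2 was the exception among the 9. It prefers Gq-class alpha subunits and is known as an early response gene. It was at 6.27, 7.30 and 7.25 CPM in OES100A9 cells with the drug and 5.21, 4.98 and 4.16 CPM in empty vector cells with the drug, against 2.09, 2.47 and 1.86 CPM in untreated OES100A9 cells and 2.02, 2.26 and 2.17 CPM in untreated empty vector cells. Every treated library is above every untreated one. The log2 fold change was 1.74 (SE 0.14) with OES100A9 and 1.20 (SE 0.15) with empty vector.

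Of the 9 members, 4 were at least 2-fold lower under the drug with each vector (RGS3, RGS16, RGS18 and RGS19) and 1 at least 2-fold higher (RGS2). Over all genes tested, 23.3% were at least 2-fold lower and 25.7% at least 2-fold higher with OES100A9, and 22% and 26.3% with empty vector. The members' median log2 fold change was -0.93 with OES100A9 and -0.74 with empty vector, beside 0.04 and 0.06 over all genes. Since the members were picked with these values known, nothing is read from these counts. The drug contrasts were broad: at an adjusted p below 0.05, 41.3% of genes fell and 43.4% rose with OES100A9, and 41.1% fell and 44.2% rose with empty vector, by the quasi-likelihood F test of edgeR. The 2 drug contrasts use different libraries.

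**Figure D2:**
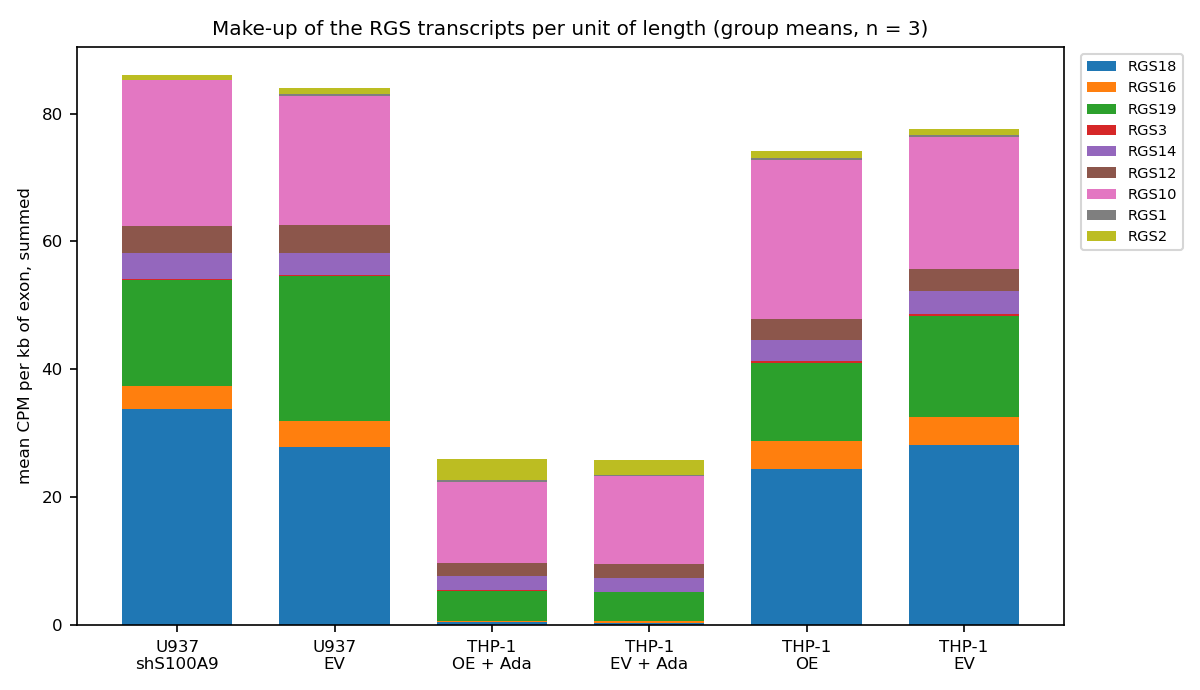
Mean CPM per kb of exon for the 9 genes (colours), stacked for each of the 6 groups (horizontal axis; n = 3 each). RGS18 fills a large share of every bar except the 2 Adavivint bars, where it takes 1.54% with OES100A9 and 1.51% with empty vector.

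The make-up of the RGS transcripts differed accordingly. RGS18 took 1.54% ± 0.24 of the length-corrected sum with OES100A9 and drug, against 32.8% ± 2.61 with OES100A9 alone, and 1.51% ± 0.32 with empty vector and drug, against 36.3% ± 1.39 with empty vector alone (SD, n = 3). Per kb, RGS10 was the highest member in both treated groups, at 12.6 ± 0.57 CPM per kb with OES100A9 and 13.7 ± 0.47 CPM per kb with empty vector. RGS2 stood at rank 3 there, at 3.31 ± 0.28 and 2.28 ± 0.26 CPM per kb, and at rank 7 of 9 in the untreated groups. RGS18 stood at rank 6 in the treated groups.

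RGS18, RGS1 and RGS2 lie on the + strand of chromosome 1 within 651 kb of each other, with RGS21 and RGS13 between them (GENCODE 29 on GRCh38; the counting build is not stated). RGS18 spans chr1:192158457-192185815, RGS1 begins 417 kb and RGS2 651 kb downstream of the RGS18 start. The values of the 3 genes differed in direction: with empty vector, RGS18 was 69.6-fold lower and RGS2 2.30-fold higher under the drug. RGS13 had 27 counts over the OES100A9 libraries with the drug against 9 without, and 32 over the empty vector libraries with the drug against 15 without; its log2 fold change was 2.27 (SE 0.79, adjusted p = 0.0154 by edgeR) with OES100A9 and 1.38 (SE 0.71, adjusted p = 0.0845) with empty vector. RGS21 is not among the genes of the deposited count table, so it has no value here. RGS16 lies outside the cluster, at chr1:182598623-182604408 on the - strand. In this annotation RGS18 shares 153 of its 2806 exonic bases with an antisense lincRNA, AL390957.1, and no source used here states whether counting used strand. The other 8 members share no exonic base with another gene.

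**Figure D3:**
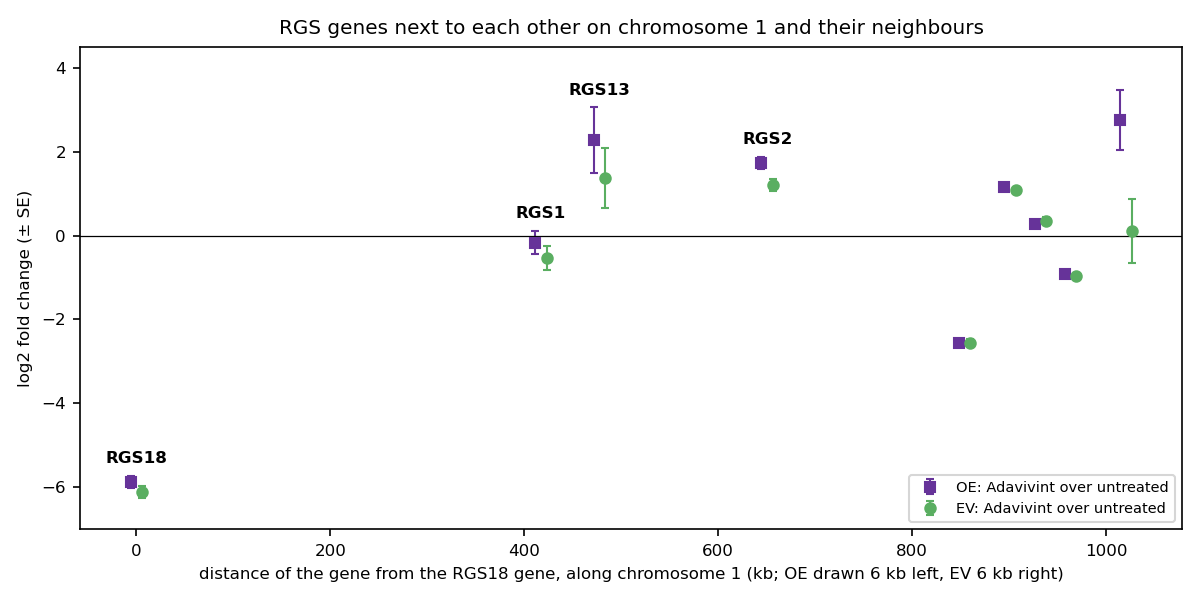
Log2 fold change under Adavivint (vertical axis, ± SE; squares OES100A9, circles empty vector) against distance from the start of RGS18 on chromosome 1 (horizontal axis, kb). RGS18 lies near -6 and RGS2 above 1 for both vectors, and the unlabelled points to the right are UCHL5, RO60, GLRX2, CDC73 and B3GALT2.

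With knockdown of S100A9 in U937 cells, RGS1 reads fell to near 0. The U937 labels name only shS100A9 and empty vector, so S100A9 loss and other effects of that vector cannot be told apart. RGS1 had 2, 0 and 3 counts with shS100A9 against 56, 78 and 49 counts with empty vector, which is 0.0361, 0 and 0.0360 CPM against 1.37, 1.53 and 1.02 CPM. The 2 groups do not overlap, and RGS1 with shS100A9 was the lowest of the 6 groups while the other 5 overlapped. From the summed counts, 5 with shS100A9 and 183 with empty vector, the level with empty vector was 53.1 times that with shS100A9 (exact 95% interval 22.3 to 165, counting error only). The fitted log2 fold change was -5.62 (SE 0.62, adjusted p = 0.0132 by edgeR), the 26th lowest of 13016 genes. With 5 counts in 1 group, this SE, derived from the F statistic, is likely too small. RGS1 was a low gene even with empty vector, at 1.31 ± 0.26 CPM (SD, n = 3), and the call was lost without empty vector replicate 1 (adjusted p = 0.0730), without empty vector replicate 3 (0.0646) or without shS100A9 replicate 1 (0.0845) in the same edgeR test. With a filter of 1 CPM in 3 libraries RGS1 was not tested, since that filter uses CPM on library totals (0.990 in empty vector replicate 3). In untreated THP-1 cells RGS1 had 1.26 ± 0.15 CPM with OES100A9 and 1.31 ± 0.26 CPM with empty vector (SD, n = 3; log2 fold change -0.05, SE 0.27, adjusted p = 0.927 by edgeR).

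The other 8 members did not pass the test in U937 cells. RGS19 averaged 33.6 ± 5.12 CPM with shS100A9 and 46.0 ± 5.88 CPM with empty vector, groups that do not overlap (SD, n = 3; log2 fold change -0.46, SE 0.16, adjusted p = 0.246 by edgeR). RGS18 was at 102, 95.8 and 87.4 CPM with shS100A9 and at 65.7, 102 and 67.1 CPM with empty vector, where the high value is the replicate that stands apart (log2 fold change 0.27, SE 0.18, adjusted p = 0.573 by edgeR). Without the 2 libraries that stand apart, RGS18 had a log2 fold change of 0.56 (adjusted p = 3.3e-04 by edgeR). In that fit RGS19 had one of -0.44 (adjusted p = 0.00394) and RGS1 one of -5.96 (adjusted p = 7.7e-04), all by edgeR and past the threshold. This setting was chosen after seeing the data. The share of all genes called in it is not given, so nothing is read from the number of members passing. The remaining 6 members had log2 fold changes between -0.17 and 0.22. Thus 1 of 9 members was lower at an adjusted p below 0.05 and none higher (by DESeq2 1 as well), beside 1.54% lower and 0.23% higher over the 13016 genes tested. At an unadjusted p below 0.05, RGS1 and RGS19 were lower and no member was higher. The share of all genes at this threshold was not computed, so nothing is read from this count.

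Overexpression of S100A9 in untreated THP-1 cells went with small, opposite differences of RGS10 and RGS19. RGS10 was at 31.6, 30.8 and 30.8 CPM with OES100A9 against 23.2, 27.7 and 26.7 CPM with empty vector, a log2 fold change of 0.27 (SE 0.07, adjusted p = 0.00891 by edgeR). RGS19 was at 24.8, 24.3 and 25.0 CPM with OES100A9 against 35.2, 32.0 and 28.6 CPM with empty vector, a log2 fold change of -0.37 (SE 0.09, adjusted p = 0.0105 by edgeR). For both genes the 2 groups do not overlap, and both calls held with each of the 6 libraries left out in turn. RGS18 was at 68.3 ± 6.72 CPM with OES100A9 and 79.0 ± 3.70 CPM with empty vector (SD, n = 3), groups that do not overlap, and did not pass (log2 fold change -0.21, SE 0.10, adjusted p = 0.156 by edgeR). The other 6 members had log2 fold changes between -0.17 and 0.20. In each direction 1 member passed, beside 13% lower and 14.9% higher over the 15403 genes tested, so the members' share lies near the background.

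Under Adavivint, 1 member passed for S100A9 overexpression. RGS2 was at 6.94 ± 0.58 CPM with OES100A9 and drug against 4.78 ± 0.55 CPM with empty vector and drug (SD, n = 3), groups that do not overlap, a log2 fold change of 0.54 (SE 0.14, adjusted p = 0.0309 by edgeR). The call rested on having all 3 libraries of each group: leaving out any 1 of them, other than OES100A9 replicate 1, gave adjusted p values of 0.0533 to 0.111. In untreated cells the RGS2 log2 fold change was 0.00 (SE 0.15). Over all genes, 4.8% were lower and 3.69% higher in this comparison, so that 56.5% of the called genes were lower, against 79.8% with library totals in place of TMM scaling. RGS18 had 138 counts over the OES100A9 libraries and 148 over the empty vector libraries with the drug, a log2 fold change of 0.04 (SE 0.21, adjusted p = 0.938 by edgeR).

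**Figure D4:**
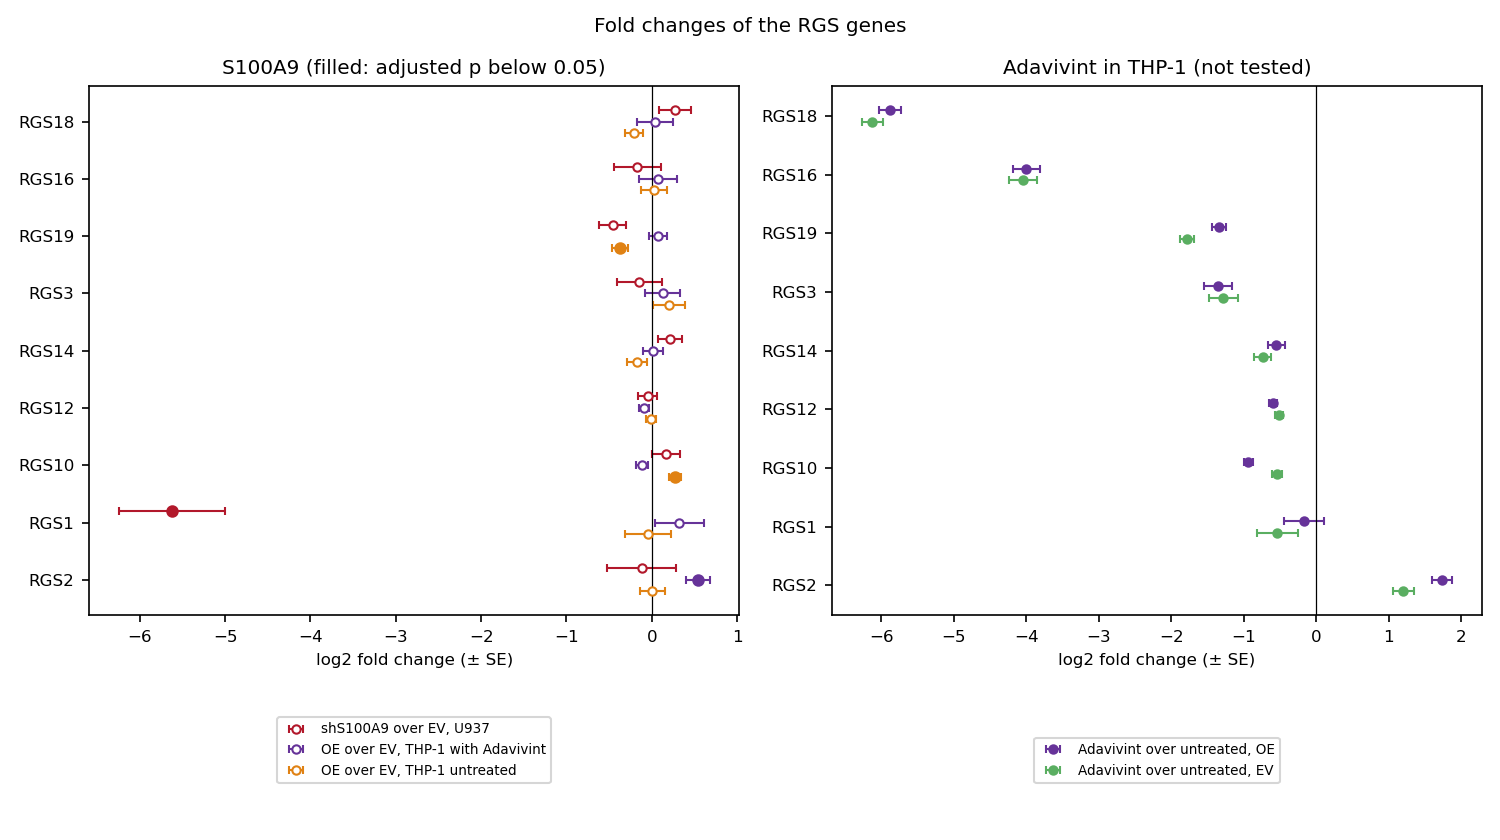
Log2 fold changes ± SE (horizontal axis) of the 9 genes for S100A9 knockdown or overexpression (left, filled where the adjusted p is below 0.05) and for Adavivint with each vector (right, not tested). RGS1 at -5.62 with shS100A9 stands apart on the left, and RGS18 and RGS16 lie lowest on the right.

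The drug response was then compared between the vectors, as the log2 fold change under Adavivint with OES100A9 minus that with empty vector. RGS10 had a difference of -0.39 (SE 0.10, adjusted p = 0.0144 by edgeR), with 15.8 ± 0.71 CPM in treated and 31.1 ± 0.45 CPM in untreated OES100A9 cells, and 17.1 ± 0.58 CPM in treated and 25.9 ± 2.40 CPM in untreated empty vector cells (SD, n = 3). The RGS10 call held with each of the 12 libraries left out in turn. RGS19 had a difference of 0.44 (SE 0.14, adjusted p = 0.0386 by edgeR). In both genes the vectors differed in untreated cells and overlapped under the drug. The RGS19 call was lost under 9 of 12 left-out libraries, with adjusted p values up to 0.0963, and with library totals in place of TMM scaling (0.0533), all by edgeR. RGS2 had a difference of 0.53 (SE 0.20) that did not pass (adjusted p = 0.0814 by edgeR). RGS18 had 0.25 (SE 0.23), given without a test. The other members were also picked with the drug values known, which limits what these tests can show. Of the 8 members tested, 1 was lower and 1 higher, beside 11.2% and 8.04% of all genes. Of the genes called for this difference, 58.3% were lower, against 71.2% with library totals.

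Between the 2 lines with empty vector and no drug, 6 of the 9 members did not pass the test. RGS18 was at 78.3 ± 20.6 CPM in U937 and 79.0 ± 3.70 CPM in THP-1 cells (SD, n = 3; log2 fold change -0.02, SE 0.17, adjusted p = 0.951 by edgeR). The test was passed by 3 members: RGS12 was higher in U937 at 60.3 ± 1.50 CPM against 45.9 ± 2.37 CPM in THP-1 (log2 fold change 0.39, SE 0.08, adjusted p = 0.00895), RGS19 higher at 46.0 ± 5.88 CPM against 32.0 ± 3.28 CPM (0.52, SE 0.13, adjusted p = 0.0231), and RGS3 lower at 1.83 ± 0.30 CPM against 3.48 ± 0.87 CPM (-0.93, SE 0.26, adjusted p = 0.0364), all by edgeR with SD over 3 libraries. Over the 13695 genes tested, 14.8% were lower and 11.4% higher in U937. Line and vector cannot be told apart here, since each line carried its own empty vector. Without U937 empty vector replicate 2, RGS18 was lower in U937, with a log2 fold change of -0.26 (adjusted p = 0.0132 by edgeR), and 4 members passed. No member passed without THP-1 empty vector replicate 2, and 1 passed without U937 empty vector replicate 1, U937 empty vector replicate 3 or THP-1 empty vector replicate 3. Shares of all genes called in these fits are not given, so nothing is read from these member counts.

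Across the 6 groups the order of levels had the same low end for 6 members. RGS10, RGS12, RGS14, RGS16, RGS18 and RGS19 were lowest in the 2 treated groups, which overlapped with each other and lay below the next group. The share of all genes ordered this way was not computed. Under the drug 41.3% of all genes fell with OES100A9 and 41.1% with empty vector (adjusted p below 0.05 by edgeR). The members were picked with the drug values known, so nothing is read from this count. RGS3 was lowest there too, but overlapped with both U937 groups. RGS18 was highest with shS100A9 in U937, above the libraries of empty vector THP-1 cells, although 1 empty vector U937 library reached 102 CPM, and RGS19 was highest with empty vector in U937. RGS2 was highest with OES100A9 and drug, then with empty vector and drug, with no overlap, while the 4 untreated groups overlapped.

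Among 12993 genes with a mean of at least 1 CPM in THP-1 cells, the genes with patterns most like RGS18 over the 12 THP-1 libraries were ELOVL5, YWHAQ, HENMT1, EAF2 and SLFN11, with Pearson r between 0.9992 and 0.9996 on log2(CPM + 0.5). These libraries fall into a treated and an untreated cluster, so any gene with a large drug difference scores high, and r is a description. ELOVL5 was at 38.9 CPM with OES100A9 and drug against 279 CPM with OES100A9 alone, and EAF2 at 4.00 CPM against 41.9 CPM, smaller differences than that of RGS18. KARS1, NCSTN and PSMD4 were most like RGS16 (r 0.9980 to 0.9986), HNRNPAB, IGFBP4 and GEMIN5 most like RGS19 (0.9971 to 0.9973), and NMNAT3, MARCO and F13A1 most like RGS10 (0.9960 to 0.9970). IL1RN, CENPF and PRDM2 were most like RGS2 (0.9858 to 0.9910). RGS3 was most like TKFC, TNNT1 and IL31RA, RGS12 most like ATP6V0E2, SPAG7 and PARVG, and RGS14 most like TBCE, MRPL11 and PMVK. RGS1 had the weakest likeness, with PKIB at 0.928.

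The partners of the RGS proteins moved in both directions under the drug. Of 14 alpha subunits tested, 9 fell and 5 rose with OES100A9, and 8 fell and 5 rose with empty vector. Over all genes tested, 41.3% fell and 43.4% rose with OES100A9, and 41.1% fell and 44.2% rose with empty vector (adjusted p below 0.05 by edgeR). GNAI2, the main Gi subunit of leukocytes, was at 166 ± 2.14 CPM with OES100A9 and drug against 382 ± 17.4 CPM with OES100A9 alone (log2 fold change -1.15, adjusted p = 1.76e-11 by edgeR). GNAZ, a slow GTPase of the Gi class, had a log2 fold change of -4.90 and GNAT2, the cone transducin subunit, one of 4.70 with empty vector. Of 14 beta and gamma subunits tested, 7 fell and 5 rose with OES100A9 and 9 fell and 3 rose with empty vector, among them GNG10 at -3.72 and -3.80 and GNG2 at -2.45 and -2.68. Of 14 other G protein regulators, 9 fell and 3 rose with OES100A9 and 9 fell and 4 rose with empty vector, with the arrestin ARRB2 at -1.84 and -2.10 and GPSM3, which binds Gi subunits, at -2.26 and -1.94 in the order OES100A9, empty vector.

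Receptors and effectors divided likewise. Of 63 receptors tested, 24 fell and 26 rose under the drug with OES100A9 and 27 fell and 20 rose with empty vector. SUCNR1, the succinate receptor, was at 7.33 ± 1.26 CPM with OES100A9 and drug against 119 ± 9.42 CPM with OES100A9 alone, and at 4.20 ± 0.58 CPM with empty vector and drug against 161 ± 10.1 CPM with empty vector alone (SD, n = 3). CCR2, the monocyte receptor for CCL2, had log2 fold changes of -4.48 with OES100A9 and -4.97 with empty vector, and CYSLTR1, a leukotriene receptor, -3.57 and -3.31. Of 31 effectors, 17 fell and 6 rose with OES100A9 and 17 fell and 8 rose with empty vector, with the adenylyl cyclase ADCY7 at -2.55 and -2.44. Medians of these lists lay between -0.66 and 0.00 with OES100A9 and between -0.60 and -0.21 with empty vector, beside 0.04 and 0.06 over all genes. The shares over all genes given above are the background of these counts, and nothing particular to the lists is read from them.

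**Figure D5:**
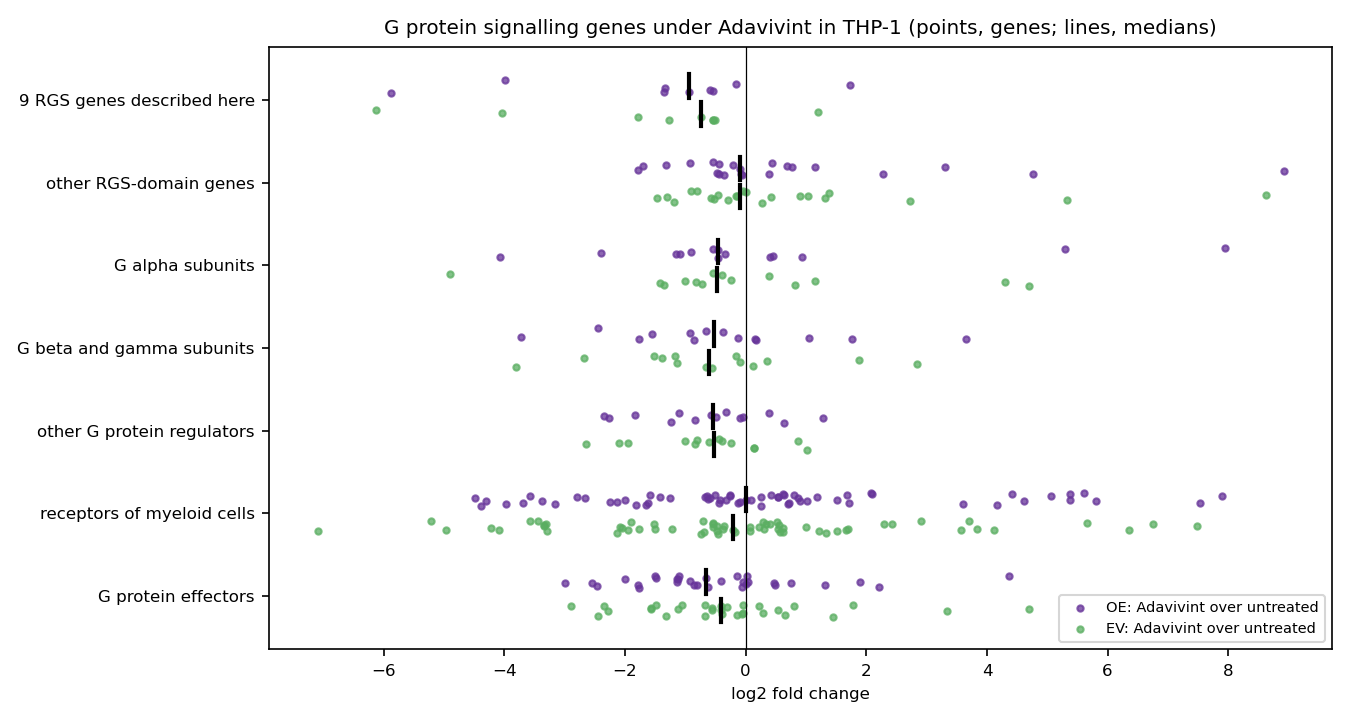
Log2 fold change under Adavivint (horizontal axis) of every tested gene (points) of the 9 RGS genes, the other RGS-domain genes, G protein subunits, regulators, receptors and effectors, with OES100A9 (upper points of each row) and empty vector (lower points). Black lines are medians, which lie at -0.93 and -0.74 for the 9 RGS genes.

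With shS100A9 in U937 cells, 4 of the 127 genes tested from the 6 lists (3.15%) fell and none rose, beside 1.54% lower and 0.23% higher over all genes: ARHGEF12, which carries an RGS-like domain, was at 14.6 ± 0.62 CPM with shS100A9 against 31.2 ± 0.54 CPM with empty vector (SD, n = 3; log2 fold change -1.10, adjusted p = 0.00737 by edgeR), GNG12 had -0.95, CYSLTR1 -1.03 and GNG10 -0.72. With OES100A9 in untreated THP-1 cells, GRK3, a receptor kinase, rose to 89.7 ± 2.50 CPM against 69.4 ± 1.54 CPM with empty vector (SD, n = 3; log2 fold change 0.38, adjusted p = 1.1e-04 by edgeR), and C5AR1, a complement receptor, to 3.50 ± 0.33 CPM against 1.13 ± 0.53 CPM (1.63). Of 63 receptors tested, 10 fell and 4 rose there, and of 31 effectors 1 fell and 8 rose, with PDE4B at 0.68. Of 22 other RGS-domain genes 2 fell and 1 rose, and of 14 alpha subunits 2 fell and 2 rose. Of 14 beta and gamma subunits 2 fell and 1 rose, as did 2 and 1 of 14 other G protein regulators. Over all genes 13% were lower and 14.9% higher, and nothing particular to the lists is read from these counts.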

How the data were processed

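RNA was measured in 18 libraries of total RNA. The authors deposited raw read counts per Ensembl gene, and HISAT2 2.0.4 is named in the submitters' processing notes; neither the counter nor the build, annotation or strand use is given in the sources used here. Symbols matched 18642 of 18670 genes, and positions and exon lengths are those of GENCODE 29. Levels are CPM with TMM factors over all libraries, and 38.4 to 84.4 M counts (M, 1e6) per library set their precision. Genes were tested with edgeR 4.0.16 in R 4.3.3 (quasi-likelihood F test) with filterByExpr and Benjamini-Hochberg adjustment over all genes, called at an adjusted p below 0.05; the fitting code was run on simulated counts first. DESeq2 1.42.0, other scalings and filters, a replicate block and left-out libraries were alternatives. No replicate pair agreed within sampling noise. The 9 members and all gene lists were chosen with earlier results of these data known. Text names all members, up to 4 genes per list and comparison by adjusted p, and the genes most like each member.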

Additional observations from a re-analysis of the deposited data

Results flagged for a closer look

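RGS10 and RGS19 were picked out because the effect of Adavivint differed between the vectors by a test of the difference itself. For RGS10 the drug effect with OES100A9 minus that with empty vector was -0.39 on the log2 scale (adjusted p = 0.0144 by edgeR), with log2 fold changes of -0.93 with OES100A9 and -0.54 with empty vector. For RGS19 the difference was 0.44 (adjusted p = 0.0386 by edgeR), with -1.34 with OES100A9 and -1.78 with empty vector. With a library left out, RGS10 passed in 12 of 12 fits. RGS19 passed in 3 of 12 (adjusted p up to 0.0963 by edgeR) and did not pass with library totals. For both genes the vectors differed in untreated cells and overlapped under the drug. Over all genes tested, 11.2% had a lower and 8.04% a higher difference at this threshold, so nothing is read from the number of members picked out. The members were picked with the drug values known, and this test draws on the same values, which limits what it can show.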

How the results depend on the processing

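The number of members called for S100A9 knockdown was 1, and 0 where genes needed 1 CPM in 3 libraries, since RGS1 then left the fit (this filter uses CPM on library totals without TMM, 0.990 for RGS1 in empty vector replicate 3), 0 with the replicate block (RGS1 adjusted p = 0.169 by edgeR), 0 to 1 with a library left out and 3 without the 2 libraries that stand apart. The knockdown called 231 genes in all, 879 by DESeq2 and 3 with the block (none of the 4 listed pathway genes), and 87% of the calls were lower, 69.1% by DESeq2. Overexpression under the drug called 1309 genes, 2026 by DESeq2. Replicate numbers did not pair the samples: the correlations of same-numbered deviations lay between -0.255 and 0.124, and the cause of the lost calls was not tested. With a library left out, the members called were 0 to 1 for overexpression under the drug, 1 to 2 for the difference of drug effects (1 with library totals) and 0 to 4 between the lines. Shares of all genes called are not given for any fit with libraries left out, so nothing is read from those member counts. The counts of members past 2-fold under the drug were 5 in each alternative with either vector. Log2 fold changes near 0 and not called turned sign in these alternatives, with causes not tested. For overexpression in untreated cells RGS2 was -0.0091 with DESeq2 size factors, -0.0036 by DESeq2 and -0.0045 with the block, and RGS12 was 0.0019 with library totals. For overexpression under the drug RGS14 was -0.037 and RGS18 -0.016, and for the difference of drug effects RGS16 was -0.025, with library totals. Between the lines RGS1 was 0.0055 in 1 fit of all 18 libraries. With a library left out, the ranges that crossed 0 were as follows. For knockdown they were -0.15 to 0.014 for RGS12, -0.34 to 0.060 for RGS16 and -0.61 to 0.15 for RGS2. For overexpression in untreated cells they were -0.15 to 0.10 for RGS1, -0.045 to 0.021 for RGS12, -0.083 to 0.12 for RGS16 and -0.12 to 0.095 for RGS2. For overexpression under the drug they were -0.070 to 0.090 for RGS14, -0.15 to 0.26 for RGS16, -0.16 to 0.18 for RGS18 and -0.014 to 0.29 for RGS3. For the difference of drug effects they were -0.17 to 0.23 for RGS16 and -0.23 to 0.11 for RGS3. Between the lines they were -0.14 to 0.15 for RGS1, -0.15 to 0.0077 for RGS10, -0.16 to 0.015 for RGS14, -0.30 to 0.013 for RGS16, -0.26 to 0.094 for RGS18 and -0.26 to 0.091 for RGS2. Of 1008 counts of listed genes under the alternatives, 73 moved past 1.5 times. RGS1 with shS100A9 rests on 5 counts, so depth limits its fold.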

Other observations

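Several RGS genes outside the 9 were higher under Adavivint; they are named after their values were seen. RGS4, a regulator of Gi and Gq signalling best known from neurons, had 142 counts over the OES100A9 libraries with the drug and 127 over the empty vector libraries with the drug, and was at 0 in all 12 untreated libraries of both lines. Set against a floor of 3 counts per group, its level was at least 75.2-fold higher with OES100A9 and at least 51.8-fold higher with empty vector, although it reached only 1.16 ± 0.23 and 0.938 ± 0.25 CPM there (SD, n = 3). RGS22 rose to 2.77 ± 0.08 CPM with OES100A9 and drug against 0.0924 ± 0.08 CPM with OES100A9 alone (log2 fold change 4.76, adjusted p = 1.06e-06 by edgeR), and to 2.31 ± 0.43 CPM with empty vector and drug against 0.0603 ± 0.06 CPM with empty vector alone (5.33, adjusted p = 1.22e-06). RGS20, a regulator of the Gz subunit that GNAZ encodes, rose by log2 3.30 with OES100A9 (adjusted p = 6.49e-10 by edgeR) and by 2.72 with empty vector (adjusted p = 5.01e-09), while GNAZ fell by 4.90 with empty vector. RGS17 and RGS5 fell with both vectors, by 0.92 and 0.44 with OES100A9 and by 1.19 and 0.90 with empty vector. RGS9 was lower with OES100A9 (log2 fold change -1.78, adjusted p = 4.61e-04 by edgeR). With empty vector RGS9 did not pass (-0.52, adjusted p = 0.207 by edgeR). Over the 22 other genes with an RGS or RGS-like domain or bound to such proteins that were tested, 10 fell and 9 rose with OES100A9 and 9 fell and 8 rose with empty vector, beside 41.3% lower and 43.4% higher over all genes with OES100A9 and 41.1% and 44.2% with empty vector, so these shares lie near the background.

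S100A9 was also higher under the drug: 105 ± 5.18 CPM with OES100A9 and drug against 28.4 ± 1.73 CPM with OES100A9 alone, and 13.6 ± 1.11 CPM with empty vector and drug against 6.44 ± 2.72 CPM with empty vector alone (SD, n = 3), groups that do not overlap.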
